A study of Homo sapiens with 6 samples.

Results

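Long noncoding RNAs are transcripts that carry no long open reading frame. Of the 21494 genes in the count table, 4056 were typed as long noncoding RNA, and 157 of those had a mean CPM (the count scaled to a library total of 1e6) of at least 10 over the 6 samples. Leaving out 2 whose names start with HOX or HOT gave 155 abundant long noncoding RNAs. They were thus selected on their mean level over all 6 samples, so their levels are given as a description. By the sample titles the RNA-seq came from the human melanoma line G361, a label that the marker genes below did not follow. There were 3 samples with a nontargeting shRNA (Control sh, genotype label WT). The other 3 had an shRNA that targets DCAF1, the gene of VprBP (VprBP sh, genotype label DCAF1 Knockdown). Per the study's methods both were stable lines made with lentiviral shRNA and puromycin selection, and 1 shRNA against VprBP was used for this comparison. The comparison asks which transcripts change when this substrate adaptor of a ubiquitin ligase, also studied as a histone kinase, is targeted. No label says that replicates were separate cultures, so p-values measure the spread between these samples, which may be technical, and an effect of the shRNA and any other difference between the stable lines cannot be told apart.

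Long noncoding RNAs work in several ways. Some stay in the nucleus and hold nuclear bodies together or act on the chromosome that makes them, some bind proteins in the cytoplasm, and others are spliced mainly to release small nucleolar RNAs or microRNAs from their introns and exons. Many start close to a protein-coding gene on the other strand, and many are made in few tissues, so that their levels can serve as signs of cell lineage.

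In the labels the cell line is G361 but the source LD611, and marker genes did not follow the melanoma label. Of 7 melanocyte markers, TYR, DCT and SOX10 have no row in the table, and MLANA and TYRP1 stayed under 1 CPM. MITF was at 6.85 to 7.82 CPM in Control sh and 9.99 to 13.1 CPM in VprBP sh. PMEL was at 1.29 to 1.83 CPM and 1.71 to 1.88 CPM. The melanocyte markers summed to 8.46 to 9.85 CPM in Control sh against 11.9 to 15.2 CPM in VprBP sh, mostly from MITF. Of 12 urothelial and epithelial markers, 10 had a row, and their sum was 4964 to 5435 CPM in Control sh against 1837 to 2014 CPM in VprBP sh. The single markers moved both ways. KRT5 went from 2326 to 2968 CPM in Control sh to 131 to 249 CPM in VprBP sh, and TP63 from 353 to 421 CPM to 0.406 to 0.495 CPM. KRT7, CDH1, UPK1B and UPK2 were also lower. GATA3 (0 to 0.338 CPM against 67.7 to 86.8 CPM), PPARG and EPCAM were higher in VprBP sh, and UPK1A stayed under 1 CPM. The endothelial list summed to 25.7 to 29.1 CPM and 1.42 to 1.90 CPM, mostly from CDH5 and VWF in Control sh. The fibroblast list summed to 30.5 to 32.7 CPM and 22.5 to 29.4 CPM, and of 3 immune markers CD14 alone had a row, at 26.99 to 34.3 CPM and 6.59 to 23.1 CPM. DCAF1 itself was at 36.2, 44.1 and 38.1 normalized CPM (CPM after upper quartile scaling) in Control sh and 34.5, 23.0 and 21.9 normalized CPM in VprBP sh. Replicate 1 of VprBP sh was near the lowest value of Control sh, and the log2 fold change was -0.58 (SE 0.17, adjusted p = 0.0125). Total counts ran from 18195949 to 26883948 per sample, and mitochondrial genes took 1.96% to 1.98% of counts in Control sh against 4.10% to 4.48% in VprBP sh. The part of these differences in the results on single RNAs was not tested.

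Several of the abundant RNAs are hosts of small RNAs, and their sequences show what each host carries. Within the gene spans of GENCODE 44, 17 of the 155 genes hold 21 microRNA hairpins. The mature sequences below, from RefSeq on GRCh38.p14, belong to hosts whose levels are described further on, and capitals mark the seed, bases 2 to 8, which pairs with targets. RNA-seq of long RNA measures the host and not the mature microRNA, so no level of a microRNA is given.
miR-15a-5p, in an intron of DLEU2: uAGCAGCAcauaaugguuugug
miR-16-5p, in an intron of DLEU2: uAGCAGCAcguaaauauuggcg
miR-9-5p, in an intron of MIR9-3HG: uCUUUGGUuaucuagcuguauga
miR-205-5p, in an intron of MIR205HG: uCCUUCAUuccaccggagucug
miR-675-5p, in an exon of H19: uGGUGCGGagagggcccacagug
miR-23a-3p, in an exon of MIR23AHG: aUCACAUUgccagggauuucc
miR-27a-3p, in an exon of MIR23AHG: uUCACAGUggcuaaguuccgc
miR-24-3p, in an exon of MIR23AHG: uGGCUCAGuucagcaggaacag
miR-4435, in an exon of MIR4435-2HG and of CYTOR: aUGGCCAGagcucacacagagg
miR-15a-5p and miR-16-5p share 1 seed, and the others printed here each have their own.

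Hosts of small nucleolar RNAs often begin with a C followed by a run of pyrimidines, the 5′ terminal oligopyrimidine tract that also marks messenger RNAs of ribosomal proteins and ties their translation to nutrient supply. A list of hosts, made of GAS5, ZFAS1, EPB41L4A-AS1 and the names that start with SNHG, holds 14 of the 155 RNAs, and RefSeq windows were found for 12 of these. In 4 of them the RefSeq start is a C that opens a run of at least 5 pyrimidines (C or T), read on the transcribed strand. The share was 4.07% of 35116 RefSeq start windows. The count depends on the start chosen, as RefSeq and GENCODE 44 starts can differ. They are 28581873 and 28582986 for SNHG12, and 173869045 and 173867989 for GAS5, which is not among the 4. For ZFAS1 both are 49278642. The windows of the 4 hosts hold 20 bases before the RefSeq start and 30 from it, with the run in capitals. They are shown because the 4 hosts moved in different directions.
SNHG32, chr6:31834896-31834945, plus strand: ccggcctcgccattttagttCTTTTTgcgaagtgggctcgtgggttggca
ZFAS1, chr20:49278622-49278671, plus strand: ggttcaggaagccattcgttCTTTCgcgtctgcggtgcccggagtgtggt
SNHG12, chr1:28581844-28581893, minus strand: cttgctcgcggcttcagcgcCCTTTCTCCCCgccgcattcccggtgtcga
SNHG5, chr6:85678704-85678753, minus strand: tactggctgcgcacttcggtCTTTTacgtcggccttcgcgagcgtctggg

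As a whole, the abundant long noncoding RNAs took a similar share of the counts in both groups, but the RNAs that made up that share differed. They took 0.540% to 0.578% of counts in Control sh against 0.489% to 0.569% in VprBP sh, and these ranges overlap. Within that share, the 10 RNAs with the most counts in each sample, picked sample by sample, took 49.6% to 52.2% in Control sh. In VprBP sh they took 33.0% to 37.8%. NEAT1 alone took 13.4% to 18.4% and 4.14% to 9.62%. H19 took 6.38% to 14.2% and 0.180% to 0.563%.

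All 155 RNAs were tested, within a fit over 16756 genes. Calls needed an adjusted p under 0.05 with a fold change over 2, and by this rule 48 of the 155 rose and 36 fell in VprBP sh while 71 were not called. The 84 calls are 54.2% of the RNAs, where 46.4% of all genes tested were called, 36.3% of genes with a mean of at least 10 CPM and 36% of protein-coding genes at that level. Rises were 24.5% and falls 22% of all genes tested, and 19.1% and 17.3% of genes at 10 CPM. The count has to be read with the way the RNAs were chosen, since a mean of 10 CPM can be reached through 1 group. That was so for 77 of them, 32 at 10 CPM in Control sh only and 45 in VprBP sh only. Of these 77, 59 were called (76.6%). Among all genes with a mean of 10 CPM, 3821 of 10514 were called, and 2371 of the 8805 at 10 CPM in both groups. Entry through 1 group was thus more common among the 155 RNAs than among all genes at 10 CPM. The shares of 54.2% and 36.3% therefore compare sets of unlike make-up. Of the 78 with at least 10 CPM in both groups, 25 were called (32.1%; 14 rose and 11 fell), where 26.9% of genes at that level in both groups were. In bulk samples, fewer cells that make an RNA and less RNA per cell cannot be told apart.

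The median log2 fold change of the 155 was 0.25, against 0.08 for all genes tested and 0.05 for genes at 10 CPM. Their median absolute log2 fold change was 1.03, against 0.92 and 0.71. The split between rises and falls moved with the scaling: it was 42 and 43 with TMM factors, 42 and 43 with DESeq2, and 59 and 33 with library size alone, as the median of all genes went to -0.01, -0.04 and 0.29. The groups did not overlap in 129 of the 155 RNAs, 71 higher and 58 lower in VprBP sh, where 79.5% of all genes tested and 81.3% of genes at 10 CPM did not overlap. Of the uncalled RNAs, 46 had an adjusted p under 0.05 with a change under 2-fold and 25 did not pass. The smallest called change was that of OTUD6B-AS1, at -1.004, and the largest uncalled one that of TMEM202-AS1, at -0.996. At the abundance limit, ENSG00000287839, TMEM202-AS1 and SPINT1-AS1 lay just inside with mean CPM of 10.1, 10.04 and 10.01, and ENSG00000286388, ENSG00000177738 and FAM225A just outside with 9.97, 9.94 and 9.90.

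**Figure D1:**
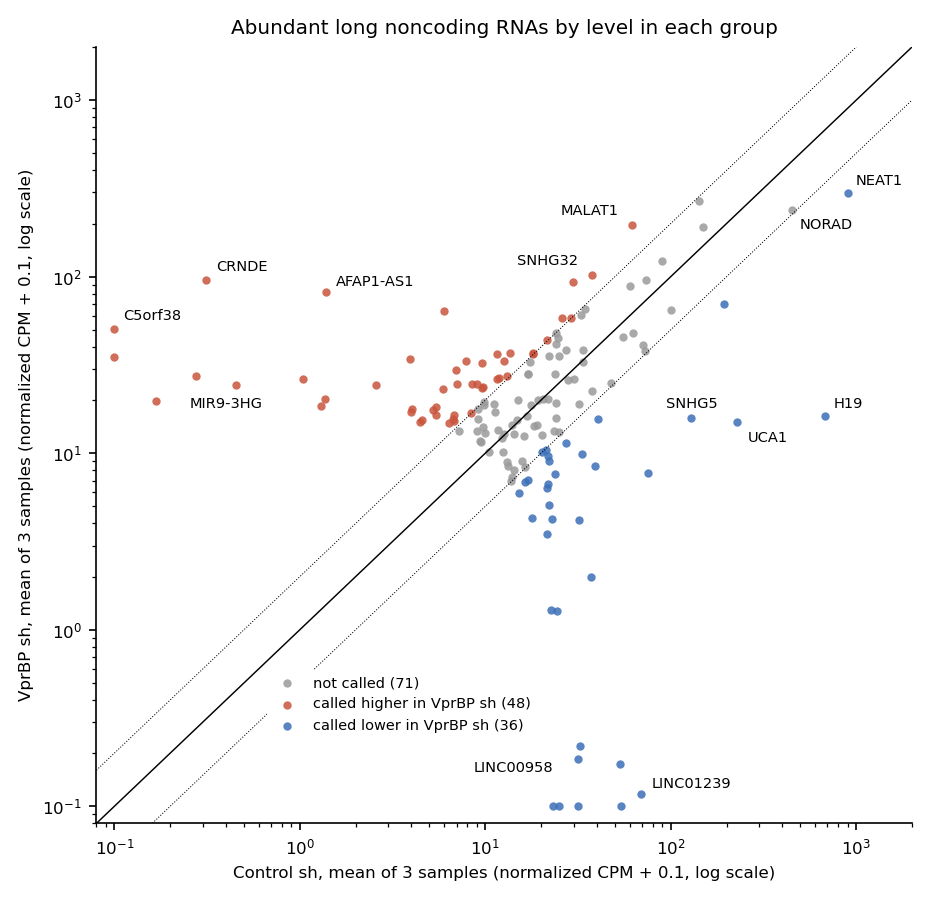
Mean level of each of the 155 RNAs in Control sh (x axis) and VprBP sh (y axis), as normalized CPM plus 0.1 on log axes. Points are RNAs and the solid line marks equal levels, with dotted lines at 2-fold; 71 points are grey, 48 are called higher and 36 called lower, and a group of RNAs near 0 on one axis lies far from the line.

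How reliably a level repeats differed among the RNAs. Over RNAs with a mean of at least 10 normalized CPM in a group, the median coefficient of variation was 9.18% in Control sh (111 RNAs) and 8.95% in VprBP sh (121 RNAs). The most variable were ENSG00000280614 in Control sh, at 50.9%, and H19 in VprBP sh, at 72.5%. Replicate 1 of VprBP sh exceeded 1.5 times both of its fellows in 6 of those 121 RNAs, H19, NEAT1, MIR23AHG, MIR205HG, ENSG00000280800 and ENSG00000281181. Leaving out single samples took the call from 7 RNAs close to 2-fold (ENSG00000269604, HCG18, LINC00667, OTUD6B-AS1, RNF216P1, SFTA1P and STAG3L5P-PVRIG2P-PILRB) and gave one to 13 others.

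The RNAs known from nuclear bodies and from chromosome regulation moved in both directions. Of 12 such names, 6 were among the 155 RNAs, and 2 rose (MALAT1 and FTX), 2 fell (NEAT1 and H19) and 2 were not called (NORAD and JPX). The 4 calls are 66.7% of these few RNAs, where 46.4% of all genes tested and 36.3% of genes at 10 CPM were called. TUG1, at 114 CPM in Control sh and 285 CPM in VprBP sh, is typed as protein-coding in the table and so is not one of the 155. NEAT1 (ENSG00000245532.10, chromosome 11 from 65422774 to 65445540, plus strand), the scaffold of paraspeckles, was the most abundant of all. It was at 1081, 790 and 829 normalized CPM in Control sh and 505, 192 and 196 in VprBP sh. Replicate 1 was the highest in each group, and the groups did not overlap. Its log2 fold change was -1.60 (SE 0.34, adjusted p = 0.00188), and -2.22 without VprBP sh replicate 1.

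MALAT1 (ENSG00000251562.9, chromosome 11 from 65497688 to 65506516, plus strand), an RNA of nuclear speckles whose gene lies downstream of NEAT1 on the same strand, went the other way. It was at 84.5, 40.5 and 59.2 normalized CPM in Control sh and 260, 179 and 147 in VprBP sh. The groups did not overlap, and the log2 fold change was 1.67 (SE 0.27, adjusted p = 0.000314). MALAT1 ends in a triple helix and not in a poly(A) tail, so a library kit for messenger RNA, as the labels and methods name, may take up only part of it. FTX, whose gene lies in the X-inactivation centre and which carries the miR-374 and miR-421 hairpins, was at 8.95, 9.58 and 10.3 normalized CPM in Control sh and 25.4, 22.7 and 22.6 in VprBP sh (log2 fold change 1.29, SE 0.12, adjusted p = 5.73e-06). JPX, from the same centre, was at 15.3, 13.4 and 18.4 and at 12.1, 7.03 and 7.73, a log2 difference of -0.82 that became -1.09 and was called without VprBP sh replicate 1. NORAD (chromosome 20 from 36045618 to 36051018, minus strand), a cytoplasmic RNA that binds Pumilio proteins, was at 451, 450 and 444 normalized CPM in Control sh and 260, 227 and 225 in VprBP sh. The groups were well apart in NORAD, but the log2 fold change of -0.92 (SE 0.08, adjusted p = 5.95e-06) stayed under 2-fold, and was -1.02 with TMM factors and -1.04 with DESeq2.

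H19 (ENSG00000130600.20, chromosome 11 from 1995171 to 2001470, minus strand), an imprinted RNA of fetal tissues and the source of miR-675, had the largest fall among RNAs that were at 10 CPM in both groups. It was at 375, 836 and 833 normalized CPM in Control sh and 29.5, 8.36 and 10.4 in VprBP sh. In each group replicate 1 stood apart, being the lowest in Control sh and the highest in VprBP sh, and the groups remained far from overlap. The log2 fold change was -5.42 (SE 0.52, adjusted p = 8.52e-06), and -6.17 without VprBP sh replicate 1. Per kilobase of annotated exon, H19 ranked first of the 155 in Control sh (197 normalized CPM per kb) and 55th in VprBP sh (4.65 normalized CPM per kb).

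Ranked per kilobase, the order at the top of the list changed between the groups. After H19, Control sh had ENSG00000280614 at 154, NORAD at 83.0, ENSG00000286966 at 62.6 and UCA1 at 55.0 normalized CPM per kb. VprBP sh had ENSG00000280614 at 292, SNHG32 at 56.5 and NORAD at 43.9 normalized CPM per kb as its top 3. ENSG00000280614 lies on the short arm of chromosome 21, in a stretch that holds copies of the ribosomal RNA genes. It was at 85.4, 117 and 223 normalized CPM in Control sh and 204, 360 and 245 in VprBP sh, so the groups overlapped. Its log2 difference of 0.93 was under 2-fold, and it was called at 1.41 without Control sh replicate 3 and at 1.09 without VprBP sh replicate 1. ENSG00000280800 and ENSG00000281181, from the same arm, had identical values in all 6 samples (15.4, 13.4 and 22 normalized CPM in Control sh, and 49.7, 16 and 18 in VprBP sh). Their reads cannot be assigned between the copies, and both are uncertain as separate genes. ENSG00000280614 has the same exonic length as these 2, 923 bases, on the same strand. Its level and rank as a separate gene are thus uncertain too.

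Of the 14 listed hosts of small nucleolar RNAs, 3 rose over 2-fold, 2 fell over 2-fold and 9 changed by less, with a median log2 fold change of 0.57. The 5 calls are 35.7% of the hosts, close to the 36.3% of genes at 10 CPM that were called. All 14 had an adjusted p under 0.05, as did 76.4% of all genes tested and 78.2% of genes at 10 CPM. The groups overlapped in none of the 14 (10 higher and 4 lower in VprBP sh), where 79.5% of all genes tested did not overlap. SNHG32, host of SNORD48 and SNORD52 in the class III region of the HLA complex, was at 36.4, 37.2 and 38.3 normalized CPM in Control sh and 93.5, 105 and 107 in VprBP sh (log2 fold change 1.45, SE 0.09, adjusted p = 3.40e-07). EPB41L4A-AS1 was at 6.74, 6.37 and 7.45 and at 28.8, 30.2 and 29.9 (log2 fold change 2.11, SE 0.11). SNHG15 was at 8.64, 12.5 and 13.4 and at 41.3, 32.7 and 35.2 (log2 fold change 1.65, SE 0.17). These 3 rose.

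SNHG5 fell the most of the hosts. It was at 120, 126 and 140 normalized CPM in Control sh and 14.3, 16.4 and 16.5 in VprBP sh, a log2 fold change of -3.03 (SE 0.10, adjusted p = 9.81e-09). SNHG16 was at 223, 171 and 185 and at 73.6, 65.9 and 69.1 (log2 fold change -1.47, SE 0.11). SNHG5 and SNHG32, whose printed starts both open with a C and a run of T, thus lay at the opposite ends of the hosts with such a run. ZFAS1 had a log2 fold change of 0.89 and SNHG12 of -0.37, so that of the 4 hosts with a run of at least 5 pyrimidines SNHG32 and ZFAS1 were higher and SNHG5 and SNHG12 lower.

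Among the remaining hosts, GAS5, which accumulates in growth-arrested cells, was at 75.2, 73.8 and 72.4 normalized CPM in Control sh and 108, 86.0 and 93.6 in VprBP sh (log2 fold change 0.38). SNHG1 had 0.46, SNHG29 0.37, SNHG7 0.68, SNHG17 0.80 and SNHG3 0.91 as log2 fold changes, all higher in VprBP sh, and SNHG6 had -0.93. With library size alone SNHG17, ZFAS1 and SNHG3 passed 2-fold (1.01, 1.10 and 1.12), and with TMM factors or DESeq2 SNHG6 did (-1.03 and -1.05). SNHG3 passed it too without Control sh replicate 3 (1.06).

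**Figure D2:**
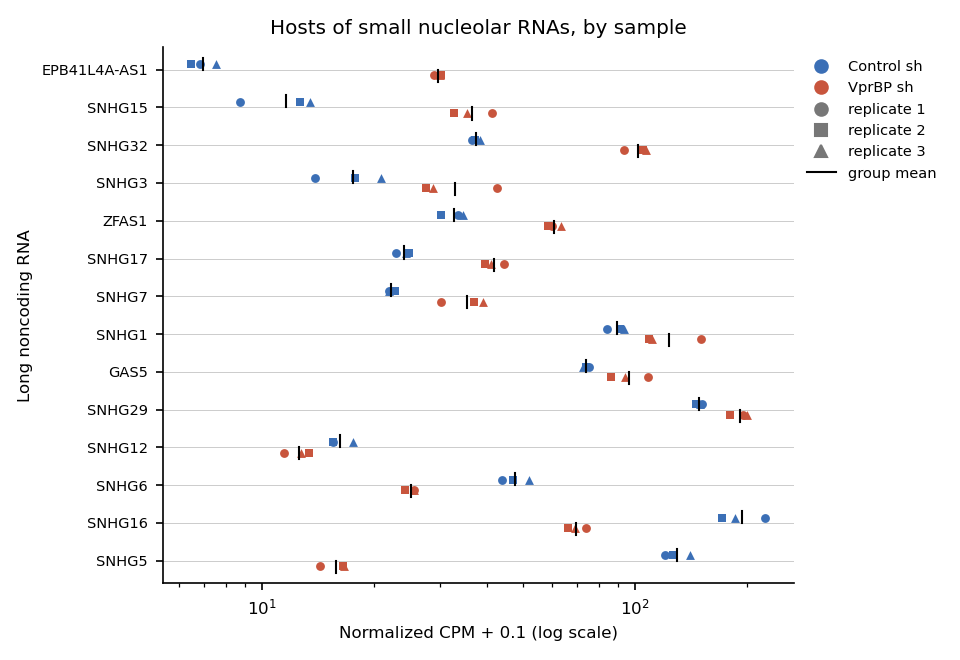
Normalized CPM plus 0.1 on a log axis (x) of the 14 listed hosts of small nucleolar RNAs (y), with each sample as a point, replicates 1 to 3 by shape, Control sh in blue and VprBP sh in red, and black ticks at the group means. The upper 10 hosts lie higher in VprBP sh and the lower 4 higher in Control sh, SNHG5 with the widest gap.

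Of the 5 genes named as microRNA hosts, MIR9-3HG and MIR1915HG rose and none fell over 2-fold. Their 2 calls are 40%, where 46.4% of all genes tested and 36.3% of genes at 10 CPM were called. MIR9-3HG, host of a copy of the neural microRNA miR-9, was at 0.316, 0.395 and 0.345 normalized CPM in Control sh and 23.9, 23.2 and 25.6 in VprBP sh. Its log2 fold change was 6.08 (SE 0.18, adjusted p = 3.96e-09), with samples of each group close together. MIR1915HG was at 10.4, 12.1 and 11.8 and at 21.6, 28.2 and 29.2 (log2 fold change 1.20, SE 0.14). MIR205HG, host of the epithelial miR-205, was at 67.0, 70.3 and 75.7 in Control sh and 54.3, 34.4 and 34.6 in VprBP sh. This difference of -0.79 on the log2 scale was under 2-fold, and was -1.04 without VprBP sh replicate 1, which lay between the other VprBP sh samples and Control sh. MIR23AHG, host of the miR-23a, miR-27a and miR-24 cluster, was at 15.9, 19.7 and 16.8 and at 29, 12.4 and 14.2. In MIR23AHG replicate 1 of VprBP sh was above, and the other 2 below, every Control sh sample, and the difference of 0.08 did not pass the test.

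DLEU2, the host of miR-15a and miR-16-1 on chromosome 13, is not named for them and fell. It was at 19.96, 22.1 and 22.6 normalized CPM in Control sh and 4.87, 2.93 and 2.40 in VprBP sh (log2 fold change -2.69, SE 0.23, adjusted p = 3.71e-06). DLEU1, whose gene starts 44 kb away on the other strand, was at 10.01, 11.4 and 9.86 normalized CPM in Control sh and 9.38, 5.62 and 6.41 in VprBP sh. MIR4435-2HG and CYTOR, near-identical genes on chromosome 2 that both carry miR-4435, fell by 0.92 and 0.74 on the log2 scale with adjusted p of 1.17e-05 and 8.89e-05, both under 2-fold. Reads can be split between these copies, so their separate levels are uncertain. DANCR, which hosts miR-4449 and in GENCODE 44 also holds a small nucleolar RNA, is not on the list of hosts above. It was at 19.1, 25.3 and 29.2 normalized CPM in Control sh and 54.3, 41.5 and 39.3 in VprBP sh (log2 fold change 0.87).

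Of 16 RNAs named in work on bladder and other epithelia, 7 were among the 155; UCA1, H19, LINC00958, LINC00857 and LINC00511 fell, LINC01133 rose and MIR205HG was not called. The median of the 7 was -2.08 on the log2 scale, and 22% of all genes tested and 17.3% of genes at 10 CPM fell. LINC00958, LINC00857 and LINC01133 reached 10 CPM in only 1 group and entered through it. UCA1 (chromosome 19 from 15828206 to 15836328, plus strand), first described in bladder carcinoma, was at 256, 208 and 221 normalized CPM in Control sh and 9.54, 17.9 and 17.6 in VprBP sh. The groups were far apart in UCA1 (log2 fold change -3.92, SE 0.22, adjusted p = 2.00e-07). LINC00958 was at 31.1, 30.03 and 33.2 in Control sh and 0.254, 0 and 0 in VprBP sh, where its only counts were in replicate 1, and its fitted value of -8.66 became -12.47 without that replicate and -7.94 without VprBP sh replicate 3. LINC00857 had a log2 fold change of -2.08 and LINC00511 of -1.26, the latter with Control sh at 18.4, 29.1 and 33.5. LINC01133 was at 5.63, 9.19 and 8.36 and at 31.9, 34.1 and 34.1 (log2 fold change 2.11, SE 0.17). The epithelial marker genes moved both ways, with KRT5 and TP63 lower and GATA3 and EPCAM higher in VprBP sh. Their part in the changes of this list was not tested.

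The names from melanocytes and melanoma gave none of the 155 RNAs. Of 11 names 4 had a row, and SAMMSON, the RNA beside MITF that many melanomas depend on, was at 0 CPM in Control sh and 0.486 CPM in VprBP sh. LINC00518, LINC00520 and CASC15 had 0.343, 1.51 and 0.959 CPM in Control sh and 0.0417, 0 and 4.32 CPM in VprBP sh. Of 13 names linked to the p53 response, 5 were among the 155 RNAs. None of these rose, NEAT1 and PVT1 fell, and NORAD, CYTOR and GAS5 were not called. The 2 calls are 40% of the 5, where 46.4% of all genes tested were called. Below the abundance limit, MIR34AHG went from 0.610 CPM in Control sh to 5.81 CPM in VprBP sh and LINC00467 from 2.38 to 7.67 CPM. PURPL went from 2.12 to 0 CPM, TP53TG1 from 7.74 to 6.83 CPM and LINC-PINT from 1.60 to 1.29 CPM. PVT1, beside MYC on chromosome 8, was at 26.4, 18.3 and 20.03 normalized CPM in Control sh and 6.85, 7.18 and 5.64 in VprBP sh (log2 fold change -1.72, SE 0.17).

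The largest changes were those of RNAs close to 0 in one group. In 3 RNAs every Control sh sample had at most 3 counts, and in 6 every VprBP sh sample did. For these a fold is given as a lower bound against 3 counts per sample. Over all calls, 38 changed by over 4-fold and 20 by over 16-fold.

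The largest rises included RNAs beside the Iroquois genes, transcription factors that pattern the embryo. C5orf38 (ENSG00000186493.14, chromosome 5 from 2752131 to 2755397, plus strand) had no count in Control sh and 42.0, 57.6 and 52.6 normalized CPM in VprBP sh, at least 349-fold higher. ENSG00000289075, on the same strand from 2756465 to 2758578, had none in Control sh and 31.4, 37.3 and 36.3 normalized CPM in VprBP sh, at least 241-fold higher. IRX2, which starts 471 bases from C5orf38 on the other strand, had no count in Control sh and 60.9, 83.9 and 80.1 normalized CPM in VprBP sh. CRNDE (ENSG00000245694.11, chromosome 16 from 54845189 to 54929189, minus strand) was at 0.263, 0.198 and 0.172 normalized CPM in Control sh and 105, 88.8 and 93.9 in VprBP sh. With 4 or 5 counts in each Control sh sample, its log2 fold change was 8.81 (SE 0.18, adjusted p = 6.35e-10). IRX5, whose start is 2 kb away, had no count in Control sh and 127, 160 and 157 normalized CPM in VprBP sh, and IRX3 and IRX6 on the same chromosome were at 2.62 to 4.05 and 0 to 0.0527 against 234 to 305 and 75.0 to 136. IRX2, IRX5 and IRX6 were thus near 0 in Control sh and expressed in VprBP sh, together with the long noncoding RNAs described here. IRX3 was low but present in Control sh.

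The other large rises lay elsewhere in the genome. AFAP1-AS1 was at 1.47, 1.63 and 0.732 normalized CPM in Control sh and 84.9, 75.9 and 83.2 in VprBP sh (log2 fold change 6.01, SE 0.21, adjusted p = 1.03e-08). NUTM2A-AS1 was at 0.211, 0.0988 and 0.215 and at 31.4, 25.9 and 24.4 (log2 fold change 7.23). ENSG00000273328 had 0.158, 0 and 0.0431 in Control sh and 18.3, 19.2 and 21.4 in VprBP sh, at least 135-fold higher, and its span overlaps ZNF662 and ACKR2. Its fitted log2 value of 8.14 became 9.43 without Control sh replicate 1. ZNF667-AS1 (log2 fold change 4.80), ENSG00000274425 (3.996) and SUNO1 (3.97) completed the 10 largest rises, from 0.732 to 1.83 normalized CPM in Control sh to 15.6 to 29.2 in VprBP sh.

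**Figure D3:**
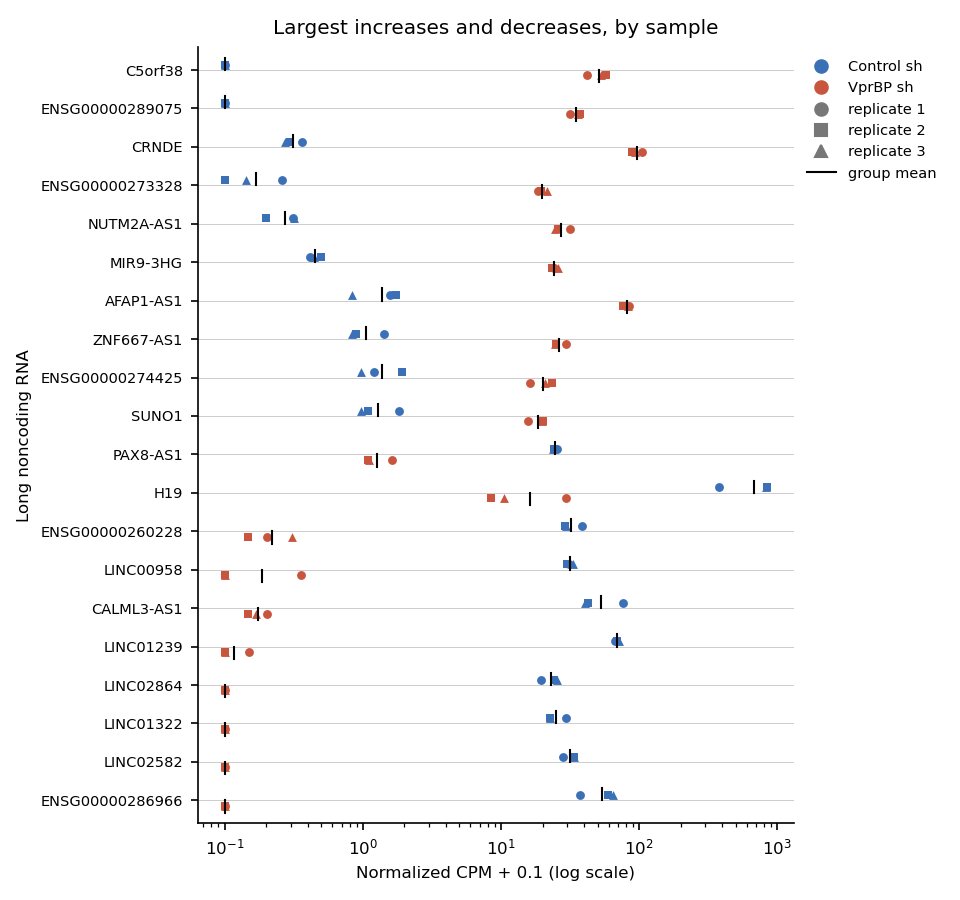
Normalized CPM plus 0.1 on a log axis (x) of the 10 largest rises and 10 largest falls among called RNAs whose groups did not overlap (y), with each sample as a point, replicates 1 to 3 by shape, Control sh in blue, VprBP sh in red and black ticks at the group means. Points at 0.1 are samples without a count; H19 is the one RNA of these 20 above 300 in Control sh.

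Among the largest falls, 4 RNAs had no count in any VprBP sh sample. ENSG00000286966 (chromosome 1 from 183613537 to 183619335, plus strand) was at 37.0, 59.3 and 64.4 normalized CPM in Control sh, at least 403-fold higher than in VprBP sh. LINC02582 was at 27.8, 33.6 and 33.6 in Control sh and LINC02864, its neighbour on chromosome 18, at 19.4, 24.2 and 25.5, and their falls were at least 239-fold and 173-fold. LINC01322 was at 29.4, 22.4 and 22.6 in Control sh, a fall of at least 187-fold. CALML3-AS1 was at 76.3, 42.4 and 40.5 in Control sh and 0.101, 0.0472 and 0.0697 in VprBP sh, a fall of at least 400-fold. ENSG00000260228, antisense to CDH13, was at 38.4, 28.9 and 29.2 and at 0.101, 0.0472 and 0.209, and its log2 value of -7.90 became -8.67 without VprBP sh replicate 3. PAX8-AS1 was at 25.2, 24.0 and 23.9 and at 1.52, 0.991 and 1.01 (log2 fold change -4.39, SE 0.18).

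LINC01239 (ENSG00000234840.2, chromosome 9 from 22646200 to 22824213, plus strand) fell while the genes around it were higher in VprBP sh. It had counts of 1273, 1394 and 1643 with the control shRNA and of 1, 0 and 0 in VprBP sh, at least 519-fold lower. Its fitted log2 value of -11.75 was -13.60 without VprBP sh replicate 1 and -11.14 without replicate 3. CDKN2A, which encodes the cell cycle inhibitors p16 and p14ARF and starts 651 kb away, had 0 counts in each Control sh sample and 2059, 3479 and 4443 in VprBP sh. CDKN2B, a related inhibitor, had 0 and then 611, 777 and 1017 counts, and DMRTA1 had 0 and then 82, 96 and 138. MTAP, an enzyme of methionine salvage, had counts of 3, 2 and 6 with the control shRNA and of 864, 858 and 1205 in VprBP sh. ELAVL2, on the other side of LINC01239, had 3, 1 and 3 counts and 150, 112 and 177. CDKN2B-AS1, a long noncoding RNA of this region below the abundance limit, had 0 counts in Control sh and 94, 97 and 127 in VprBP sh. LINC01239 was thus the one of 9 genes in this stretch with counts above 6 in Control sh. DNA copy number was not analysed here, so a deletion or other difference in the genome between the stable lines, or lines that are different cells, and an effect of the shRNA cannot be told apart, which bears on every fold change given here.

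**Figure D4:**
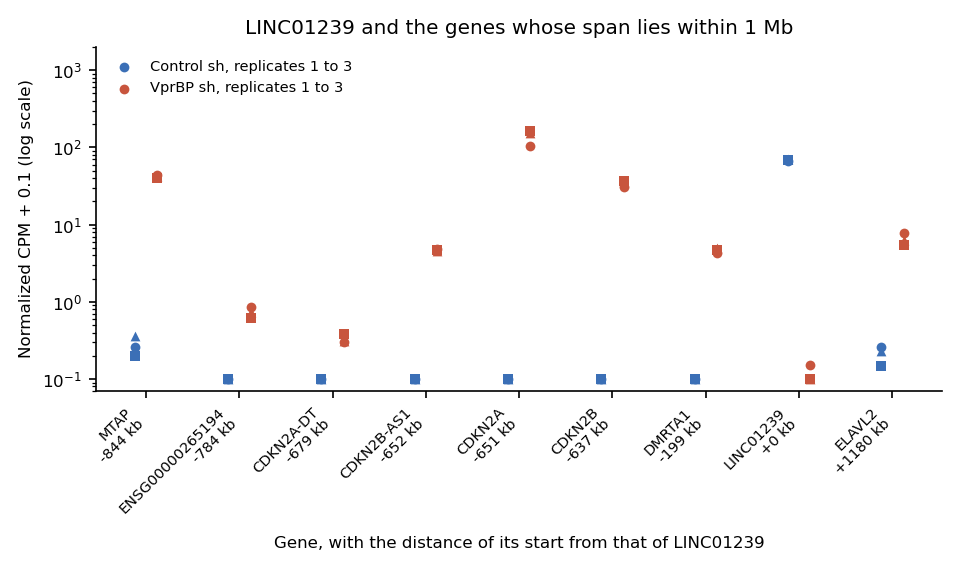
Normalized CPM plus 0.1 on a log axis (y) for LINC01239 and the 8 other protein-coding and long noncoding genes of the table whose span lies within 1 Mb (x, in order, with the distance of each start from that of LINC01239 in kb); points are samples, Control sh in blue and VprBP sh in red. LINC01239 is high in Control sh only, and the other genes are higher in VprBP sh.

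Of the 155 RNAs, 154 had an entry in GENCODE 44, and 137 of these overlap another gene on either strand, 89 a protein-coding gene. In 84 an annotated exon overlaps a protein-coding exon. Of these 84, 38 were called (45.2%), where 46.4% of all genes tested and 36.3% of genes at 10 CPM were. Strand-specific counting is not given in the sources used here, so in an overlap the reads of the 2 genes cannot be told apart. Of the 17 RNAs that overlap no gene, 5 rose and 9 fell, with a median log2 fold change of -1.03. The 14 calls are 82.4% of these few RNAs, where rises were 24.5% and falls 22% of all genes tested. NORAD, C5orf38, SUNO1, LINC00958, LINC02582 and LINC02864 are among those 17.

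Long noncoding RNAs often share a start region with a protein-coding gene. In 45 of the 155 the start lies within 1 kb of a protein-coding start on the other strand, and the protein-coding gene was tested in 44. Of 17 called RNAs in such pairs, the partner was called in the same direction in 12, in the opposite direction in 0 and not at all in 5. Over all 44 tested partners 36.4% were called, where 46.4% of all genes tested were. The log2 fold changes had the same sign in 32 of the 44 pairs. ZFAS1, at 0.89 and not called, lay beside ZNFX1, which fell by 1.04. With library size alone ZFAS1 passed 2-fold at 1.10 but ZNFX1, at -0.83, did not. In 32 of the 45 pairs the starts face away from each other and so share the stretch between them, and there the partner was called in the same direction for 7 of 11 called RNAs.

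C5orf38 and IRX2 are a pair of this kind in which both genes rose, and the 300 bases next to the start of C5orf38, read on its own strand from hg38, are shown for it. Capitals mark CG dinucleotides, the sites of DNA methylation.
C5orf38, facing IRX2, chr5:2751848-2752147, plus strand: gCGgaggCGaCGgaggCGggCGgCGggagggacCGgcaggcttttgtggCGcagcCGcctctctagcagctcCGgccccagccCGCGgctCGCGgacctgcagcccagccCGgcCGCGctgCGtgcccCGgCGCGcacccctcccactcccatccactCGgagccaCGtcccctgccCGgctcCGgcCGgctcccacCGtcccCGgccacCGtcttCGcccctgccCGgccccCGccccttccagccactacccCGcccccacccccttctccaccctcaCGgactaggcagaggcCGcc
The window holds 35 CG, and at least as many were found in 14.1% of the RefSeq start windows of the same length. Those windows also hold bases from the start onward, whereas this one lies wholly before the start of C5orf38. No methylation was measured.

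ENSG00000274425 rose with RAVER1, from 116 to 571 normalized CPM in the coding gene, and ZNF667-AS1 with ZNF667, from 1.27 to 11.0. ENSG00000277459, which starts 10 bases from YAP1, was at 20.4, 23.8 and 23.6 in Control sh and 1.42, 0.897 and 1.25 in VprBP sh (log2 fold change -4.24, SE 0.18). YAP1, the effector of Hippo signalling, went from 3551 to 282 normalized CPM, a log2 fold change of -3.65. TPT1-AS1 and TPT1, a translationally controlled protein, both fell, by 1.27 and 1.28 on the log2 scale, the coding gene from 1753 to 720 normalized CPM. SLC12A2-DT rose with SLC12A2, HCG18 with TRIM39 and ENSG00000176593 with ZNF606, while TRIM8-DT fell with TRIM8, OTUD6B-AS1 with OTUD6B and ENSG00000270504 with PXDC1. In 8 of the 12 pairs called the same way the RNA overlaps the span of its partner, so the 2 genes may share reads. C5orf38, TPT1-AS1 and SLC12A2-DT do not overlap theirs.

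In 5 pairs the RNA was called and the partner was not. SPINT1-AS1 was at 3.48, 4.79 and 4.78 normalized CPM in Control sh and 12.5, 16.4 and 15.7 in VprBP sh (log2 fold change 1.77), where SPINT1, an inhibitor of serine proteases, had -0.66. ASB16-AS1 rose by 1.63 on the log2 scale beside TMUB2 with -0.63. PCCA-DT rose by 1.76 with PCCA at 0.48, PSMA3-AS1 by 1.40 with ARID4A at 0.87, and TTC28-AS1 by 1.16 with PITPNB at 0.21.

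**Figure D5:**
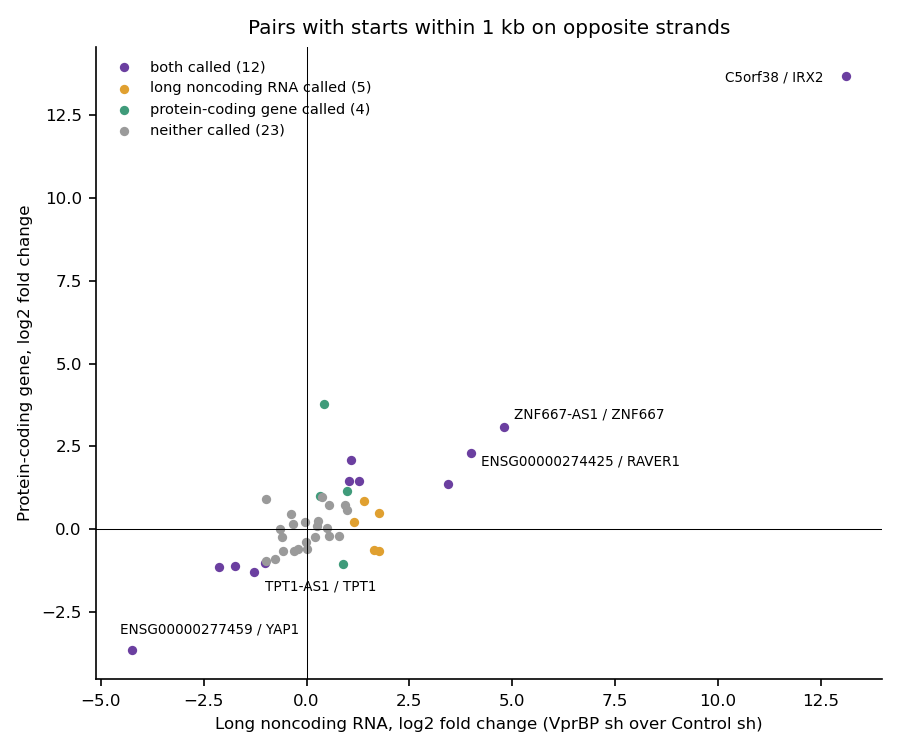
Log2 fold change (VprBP sh over Control sh) of the long noncoding RNA (x) and of the protein-coding gene (y) for the 44 tested pairs whose starts lie within 1 kb on opposite strands; each point is a pair, coloured by which of them was called. In 12 pairs both were called in the same direction; the point of C5orf38 and IRX2 is a fit against 0 counts and its position is no bound.

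By the names in the table, 37 of the 155 are antisense RNAs (10 rose and 7 fell) and 7 are divergent transcripts (4 rose and 1 fell). The calls are 45.9% of the antisense and 71.4% of the divergent RNAs, where 46.4% of all genes tested were called. The coding gene in the name was tested for 40 of the antisense and divergent RNAs, and 18 of these 40 genes were called. Where the RNA was called, the named gene was called the same way in 14 of 20, the opposite way in 1 and not in 5. The opposite pair was AFAP1-AS1, which rose, with AFAP1, an actin filament protein whose mean went from 186 to 55.9 normalized CPM (log2 fold change -1.73). CALML3, a calmodulin-like protein of epithelia, went from 94.4 normalized CPM to no count along with CALML3-AS1, and GATA2 from 31.7 to 3.24 along with GATA2-AS1, which fell by 1.79 on the log2 scale. NOP14 fell by 1.22 while NOP14-AS1 fell by 0.92, under 2-fold. WARS2-AS1 and WARS2 had opposite signs, at -0.98 and 0.91, neither called.

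The antisense and divergent RNAs not yet named behaved as follows. IGFL2-AS1 fell from 32.8, 40.3 and 37.6 normalized CPM to 3.20, 1.42 and 1.08 (log2 fold change -4.33), and SLC9A3-AS1 fell by 2.22 on the log2 scale. ENTPD1-AS1 and C10orf95-AS1 rose by 2.12 and 2.17, and FAM151B-DT by 1.23. OIP5-AS1 (cyrano), a conserved RNA that drives the decay of miR-7, was at 92.3, 102 and 107 normalized CPM in Control sh and 73.5, 60.9 and 59.4 in VprBP sh (log2 difference -0.63). FGD5-AS1 was at 55.2, 62.6 and 62.9 and at 85.8, 89.98 and 89.99 (0.56). NNT-AS1, CTBP1-DT and C1RL-AS1 had -0.76, -0.61 and -0.56, and NUTM2B-AS1, MRPL20-AS1, LIMD1-AS1, TMEM147-AS1, THAP9-AS1 and DHRS4-AS1 from 0.42 to 0.94, all under 2-fold. MAPKAPK5-AS1, BAIAP2-DT, HSD17B1-AS1, ARRDC1-AS1, ELF3-AS1, GABPB1-AS1, WAC-AS1 and ZNF561-AS1 lay between -0.33 and 0.29.

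The 22 RNAs with a LINC name in the table split into 7 that rose, 9 that fell and 6 not called. Their 16 calls are 72.7%, where 46.4% of all genes tested and 36.3% of genes at 10 CPM were called. LINC01239, LINC01224 and LINC01133 are among those that reached 10 CPM in only 1 group and entered through it. LINC01278 on the X chromosome was the most abundant that rose, from 35.3, 27 and 26 normalized CPM to 104, 81.2 and 94.8 (log2 fold change 1.67, SE 0.14). LINC01224, LINC01128, LINC00662, LINC00963 and LINC00667 rose by 1.77, 1.47, 1.28, 1.18 and 1.01 on the log2 scale. LINC01503 fell from 35.2, 28.3 and 32.5 to 3.50, 4.30 and 4.53 (log2 fold change -2.95, SE 0.15), and LINC02035 fell by 2.46. LINC00665 (0.92), LINC01002 (-0.92) and LINC00294 (-0.81) stayed under 2-fold, and LINC00205, LINC00649 and LINC01001 did not pass the test.

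Among RNAs with other names, HCG11, HCG18 and HCP5 on chromosome 6 are named for the HLA complex. HCG11, from 26521709, lies apart from HCG18, from 30286690, and HCP5, from 31463170. HCG11 rose from 3.05, 3.95 and 4.44 normalized CPM to 40.8, 30.9 and 30.6 (log2 fold change 3.15, SE 0.18). HCG18 rose by 1.03 on the log2 scale, and HCP5 was at 0.60. DUXAP8, GUSBP11, ANAPC1P2 and RNF216P1, transcribed pseudogenes, rose by 1.82, 1.78, 1.17 and 1.02, and reads of such genes can be shared with their parent copies. OLMALINC rose by 1.45, and SERPINB9P1, PP7080 and SFTA1P fell by 1.18, 1.29 and 1.03. CHASERR, which restrains its neighbour CHD2 in cis, was at 26.0, 21.9 and 24.0 and at 46.8, 50.2 and 46.1 (0.99, under 2-fold). The readthrough and duplicated genes SLX1A-SULT1A3, SLX1B-SULT1A4 and PDXDC2P-NPIPB14P had -0.38, -0.30 and 0.05, STAG3L5P-PVRIG2P-PILRB had 1.004 and ARHGAP27P1-BPTFP1-KPNA2P3 0.57, and all are uncertain because their exons are shared. EBLN3P, FAM157C, MUC20-OT1, HEIH and HHLA3 were not called, at -0.28, -0.16, -0.10, 0.04 and 0.98.

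The 35 RNAs that the table gives by identifier only had 10 rises, 9 falls and 16 without a call. Their 19 calls are 54.3%, where 46.4% of all genes tested and 36.3% of genes at 10 CPM were called. GENCODE 44 names 6 of them: ENSG00000275216 is LINC03061, ENSG00000231187 SYT15-AS1, ENSG00000232098 ZNF584-DT, ENSG00000248538 PPP1R3B-DT, ENSG00000260228 CDH13-AS2 and ENSG00000284879 NCAL1. ENSG00000275216 on chromosome 13 was at 84.1, 71.2 and 71.9 normalized CPM in Control sh and 17.1, 3.21 and 2.47 in VprBP sh. Replicate 1 of VprBP sh was the one that stood apart, and the log2 fold change of -3.36 (SE 0.58, adjusted p = 0.000490) was -4.75 without it. ENSG00000248538, ENSG00000231187, ENSG00000288884, ENSG00000232098 and ENSG00000262160 rose by 3.29, 1.98, 1.78, 1.55 and 1.24 on the log2 scale, and ENSG00000269604 by 1.03. ENSG00000235609, ENSG00000276850, ENSG00000287839 and ENSG00000261512 fell by 1.65, 1.37, 1.36 and 1.27. ENSG00000256028, ENSG00000262879, ENSG00000230551, ENSG00000283103 and ENSG00000288473 lay between -0.84 and 0.97 with adjusted p under 0.05. ENSG00000260927 had -0.64 with adjusted p = 0.0468, and its groups overlapped. ENSG00000288663, ENSG00000241860, ENSG00000284879, ENSG00000285756, ENSG00000258634, ENSG00000244675 and ENSG00000278730 lay between -0.38 and 0.20 and did not pass the test.

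The RNAs came from 23 chromosomes. Chromosome 19 held most, 17, of which 9 rose and 2 fell, where 35.3% of all genes tested on it rose. Chromosome 10 held 13 (6 rose and 5 fell) and chromosome 13 held 4 (1 rose and 3 fell). All 4 on chromosome 7 and all 3 on chromosome 22 rose, and none of the 4 on chromosome 12 or the 3 on chromosome 20 was called. Of all genes tested, 27.7% rose on chromosome 7 and 33.3% on chromosome 22, and 38.1% were called on chromosome 12 and 45.8% on chromosome 20. With so few RNAs on each, nothing is read from these counts.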

How the data were processed

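RNA-seq of 6 samples (Control sh and VprBP sh, 3 each, grouped by the sample titles) was used. The authors mapped reads with STAR to hg38 and deposited estimated counts per gene from Partek Flow, unscaled and for each sample; 59.4% are whole, and every row sums to at least 10. The labels name a SMARTER kit and the methods a strand-specific KAPA kit, both for messenger RNA, so RNAs without a poly(A) tail may be under-represented. Counts were rounded and tested with edgeR 4.0.16 (quasi-likelihood, upper quartile factors, filter minimum 10, R 4.3.3) over 16756 genes with Benjamini-Hochberg adjustment, in place of Partek's own test; calls needed adjusted p under 0.05 and over 2-fold. The test was checked on simulated data. A floor of 3 counts per sample, 0.104 to 0.158 normalized CPM, covers counting error only. Members and gene lists were chosen with earlier results of these data known. Text names members of fixed lists, the 10 most abundant, the 10 largest rises and falls, members at the limits, and partner genes; all others were named to account for the members, after their values were seen, as were the genes around LINC01239 and the Iroquois genes. A member and a neighbouring gene are not reported here by name. Alternatives were TMM, library size, DESeq2 1.42.0, limma-voom (limma 3.58.1), other filters, a 2-fold test, a replicate block, samples left out or summed, and other member rules. Annotation came from GENCODE 44, and 136 members had the same coordinates there as in the table.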

Additional observations from a re-analysis of the deposited data

How the results depend on the processing

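Of the 84 called RNAs, 55 were called the same way in all 15 alternative fits. Another 14 were absent from the fit with at least 10 counts in every sample and were called the same way in the other 14 fits, and none of the 84 changed sign in any fit that tested it. For 50 named RNAs, 711 of 736 values kept direction and side of the threshold, 18 passed it newly and 2 no longer did (LINC00511 and MIR1915HG in the test against a 2-fold change). The other 5 are values of MIR23AHG that turned negative: -0.018 with TMM factors, -0.038 with DESeq2, -0.042 with limma-voom, -0.011 with the replicate block and -0.39 without VprBP sh replicate 1. The median log2 fold change of the RNAs was 0.46 with library size alone, 0.12 with DESeq2, and 0.13 to 0.29 with 1 sample left out. DCAF1 did not pass with library size alone (-0.37, adjusted p = 0.0851), in the test against a 2-fold change (-0.58, adjusted p = 1.000) or with replicates 2 and 3 summed (-0.46, adjusted p = 0.0839). Other rules for choosing the RNAs changed the counts because they changed how many entered. A minimum of 5 CPM gave 323 RNAs with 175 called (108 up, 67 down, median 0.39), and 20 CPM gave 64 with 31 called (19 up, 12 down, median 0.48). At least 10 CPM in each group gave 78 with 25 called (14 up, 11 down, median 0.049), and no overlap with another gene gave 17 with 14 called (5 up, 9 down, median -1.03). Replicate numbers did not pair the samples, as deviations of same-numbered samples had correlations of -0.24, -0.12 and -0.21 over 10501 genes, and the fit with a replicate block called 83 RNAs (48 up, 35 down). For RNAs with at most 3 counts in every sample of a group, depth allowed only a lower bound of the fold.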
